A study of Mus musculus with 60 samples.

Results

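Bile acid handling in the gut wall was followed through 8 genes of the Lgr5-2A-eGFP mouse intestine: Slc10a2, Fabp6, Slc51a, Slc51b, Fgf15, Nr1h4, Nr0b2 and Gpbar1. They were chosen by gene symbol from the 55357 genes of the deposited count table, and all 8 were among the 23360 genes with enough counts to be tested. The mice carry a green fluorescent protein gene joined to Lgr5, the gene that marks the stem cells at the base of the crypt, and were 8 weeks old. Epithelial cells were released by chelation and TrypLE and sorted by fluorescence. At least 50000 cells per fraction were collected from the small intestine and at least 30000 from the colon. The groups are the GFP-high, GFP-intermediate and GFP-negative cells of 5 gut parts: the proximal, middle and distal small intestine, cut as equal lengths, and the proximal and distal colon. Each of the 15 groups has 4 libraries of polyadenylated RNA, 60 in all. All groups share the reporter allele, and no other genotype or treatment was compared. The labels do not give the strain or the number of animals, so the p-values measure the spread between these libraries.

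Bile acids made in the liver return to it from the end of the small intestine. Slc10a2 is the sodium-dependent transporter that takes them up at the brush border, Fabp6 is the cytosolic protein that binds them inside the enterocyte, and Slc51a and Slc51b are the subunits of the organic solute transporter that exports them across the basolateral membrane. Nr1h4 encodes the nuclear receptor FXR, which bile acids activate. In the ileum FXR raises Fabp6, both transporter subunits and Fgf15, a hormone that travels to the liver and represses bile acid synthesis. Nr0b2 encodes SHP, a repressor that FXR induces, and Gpbar1 is the bile acid receptor of the cell surface, known from enteroendocrine and immune cells among others.

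The promoters of 3 genes that were lower in GFP-high cells of the middle and distal small intestine are shown because FXR is known to act on them. FXR binds, with its partner RXR, an inverted repeat of the nuclear receptor half-site AGGTCA with a single base between its arms, AGGTCANTGACCT. Both strands of each window, 250 bases before to 50 bases after the start of the gene in RefSeq (GRCm38.p6), were searched. Capitals mark the inverted repeat at 2 or fewer mismatches in Fabp6 (chr11:43601513-43601812, minus strand) and the exact half-site, in either orientation, in Slc51a (chr16:32487830-32488129, minus strand) and Slc51b (chr9:65422724-65423023, minus strand). A half-site can lie within an inverted repeat, and here none did.
Fabp6: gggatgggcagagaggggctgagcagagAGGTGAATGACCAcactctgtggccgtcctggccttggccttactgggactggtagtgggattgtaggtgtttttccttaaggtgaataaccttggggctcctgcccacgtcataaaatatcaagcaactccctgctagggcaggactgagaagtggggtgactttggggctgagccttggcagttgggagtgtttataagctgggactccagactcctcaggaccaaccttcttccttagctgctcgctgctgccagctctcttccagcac
Slc51a: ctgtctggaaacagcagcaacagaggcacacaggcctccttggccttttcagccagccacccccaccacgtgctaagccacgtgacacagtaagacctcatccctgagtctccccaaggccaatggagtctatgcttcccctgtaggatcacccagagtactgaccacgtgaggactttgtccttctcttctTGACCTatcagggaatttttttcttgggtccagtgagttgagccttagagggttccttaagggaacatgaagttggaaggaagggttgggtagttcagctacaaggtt
Slc51b: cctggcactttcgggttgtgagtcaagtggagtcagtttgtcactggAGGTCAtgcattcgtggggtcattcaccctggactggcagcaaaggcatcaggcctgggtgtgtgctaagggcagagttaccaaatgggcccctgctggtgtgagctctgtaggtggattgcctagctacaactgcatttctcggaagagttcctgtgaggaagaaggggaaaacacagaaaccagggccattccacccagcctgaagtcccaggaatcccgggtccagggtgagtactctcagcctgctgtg
The repeat of Fabp6 began 222 bases upstream of the start. It was the only match of this kind among the 7 of the 8 genes that had a window, against 1.14% of the 32851 windows of the table. The half-site lay 58 bases upstream in Slc51a and 203 bases upstream in Slc51b. It was also present in Nr1h4, which makes 3 of the 7 windows, against 16.3% of all windows. Slc10a2, Nr0b2 and Gpbar1 had neither match in these letters. These are matches of letters, and binding was not measured.

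Total counts per library ran from 55411864 to 113917959, with a median of 81230235. Levels are given as CPM, counts scaled to a common library total after TMM scaling, and 3 counts, taken as the floor of a library, correspond to 0.0243 to 0.0589 CPM. The reporter gene followed its label: Lgr5 averaged 313 ± 61.4 CPM in GFP-high cells of the proximal small intestine and 2.67 ± 0.675 CPM in GFP-negative cells (SD, n = 4 each), and it was higher in GFP-high cells by 4.44 to 7.46 on the log2 scale across the 5 parts. The GFP-negative libraries hold more than absorptive cells. Their summed leukocyte markers (10 genes) ran from 113 to 3158 CPM, against 2.74 to 34.0 CPM in GFP-high libraries, and all 10 were lower in GFP-high cells in each of the 5 parts. The enterocyte markers (12 genes) summed to 1061 to 3525 CPM in GFP-high libraries of the small intestine and to 17630 to 46480 CPM in GFP-negative ones, and all 12 were lower in GFP-high cells in each of those 3 parts. No leukocyte or enterocyte marker was at 0 throughout a group. The GFP-high libraries of the small intestine also held Paneth cell markers (6 genes). The medians of their sum were 12059, 15813 and 15960 CPM from the proximal to the distal part, against 825, 610 and 788 CPM in GFP-negative cells. For the goblet cell markers (6 genes) these medians were 38845, 41519 and 42892 CPM in GFP-negative cells. In GFP-high cells they were 3238, 2550 and 3588 CPM. In sorted bulk samples fewer cells of a type and less RNA per cell cannot be told apart, and the part of these cell types in the differences below was not tested.

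Differences are log2 values from edgeR's quasi-likelihood test, fitted to all 15 groups and adjusted over the 23360 genes by the Benjamini-Hochberg method, with the standard error after ± and a call at an adjusted p below 0.05. In the middle and distal small intestine most of the 8 genes were called lower in the GFP-high fraction than in the GFP-negative one. They were called lower for 4 of 8 in the proximal, 7 of 8 in the middle and 7 of 8 in the distal small intestine, where 24.6%, 25.6% and 26.2% of all genes tested were called lower. In the colon the count was 4 of 8 in the proximal part and 1 of 8 in the distal part, where 14.0% and 13.9% of all genes were called lower. The distal colon count is near its share, and the proximal one ran from 0 to 4 when libraries were left out. None of the 8 was called higher in any part, where 22.5%, 22.7%, 25.7%, 11.3% and 11.2% of all genes were, from the proximal small intestine to the distal colon. The median difference of the genes was -1.38, -2.50 and -3.76 along the small intestine and -1.43 and -1.05 in the proximal and distal colon, with a gene at 0 in a group put at its bound or left out, while the median of all genes tested lay between -0.0445 and 0. In GFP-negative cells of the small intestine 7 genes had their highest mean in the distal part and Nr0b2 had it in the proximal part, and in the distal colon only Nr1h4 averaged above 5 CPM.

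**Figure D1:**
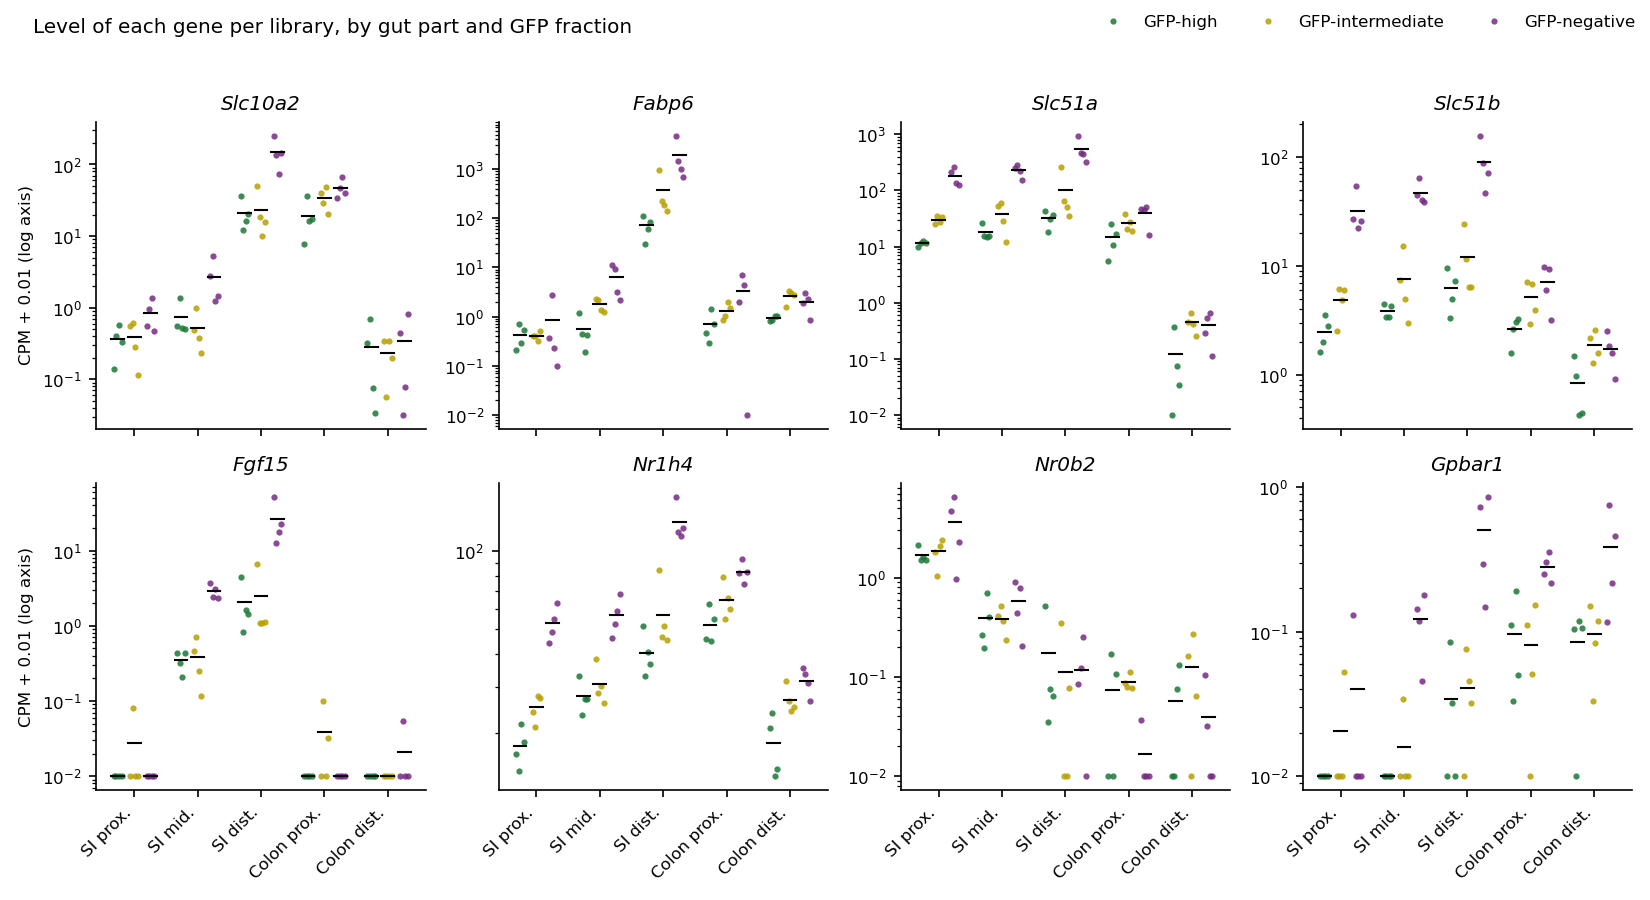
Level of each of the 8 genes in the 60 libraries (points, CPM + 0.01 on a log axis; the bar is the group mean) by gut part, with GFP-high, GFP-intermediate and GFP-negative cells side by side. Fabp6 reaches its highest levels in the distal small intestine, Slc10a2 is also high in the proximal colon, and Nr0b2 is highest in the proximal small intestine.

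Slc10a2, the uptake transporter, was high in the distal small intestine and the proximal colon and averaged below 1 CPM in the distal colon. In the distal small intestine it had 36.3, 12, 16.2 and 20.6 CPM in the GFP-high libraries, 49.4, 18.7, 10.2 and 15.7 CPM in the GFP-intermediate ones, and 250, 136, 74.8 and 145 CPM in the GFP-negative ones. Every GFP-negative library lay above every GFP-high and GFP-intermediate library, while those 2 fractions overlapped. The gene was 7.12-fold lower in the GFP-high fraction than in the GFP-negative one (-2.83 ± 0.59, adjusted p = 6.73e-05). In the middle small intestine it averaged 0.722 ± 0.415 CPM in GFP-high and 2.70 ± 1.86 CPM in GFP-negative cells (SD, n = 4 each). That difference of -1.93 ± 0.63 (adjusted p = 0.00879) fell short of the threshold without GFP-negative replicate 2 (-1.37, adjusted p = 0.0818). In the proximal small intestine the means were 0.354 CPM in GFP-high and 0.823 CPM in GFP-negative cells, with overlapping libraries and no call (-1.20 ± 0.70, adjusted p = 0.160).

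In the proximal colon Slc10a2 had 7.73, 36.4, 16.2 and 17.1 CPM in the GFP-high libraries, against 34.5, 47.2, 66.2 and 39.4 CPM in the GFP-negative libraries. The fractions overlapped through GFP-high replicate 2 alone, and the difference was not called (-1.28 ± 0.57, adjusted p = 0.0916). Without that library it was -1.78 (adjusted p = 0.0320), and it also passed with the other form of the quasi-likelihood test and with only the groups compared (adjusted p = 0.0113 and 0.0413). The summed colonocyte markers (8 genes) were also highest in that library, at 1895, 4713, 1966 and 2879 CPM over the 4 GFP-high libraries, and their part in the result was not tested. Against the distal small intestine, proximal colon GFP-high cells showed no call for Slc10a2 (-0.14 ± 0.56, adjusted p = 0.921), and the sign turned without proximal colon GFP-high replicate 1 (0.13, adjusted p = 0.935) or without distal small intestine GFP-high replicate 1 (0.25, adjusted p = 0.853). In GFP-negative cells the gene was 3.23-fold lower in the proximal colon than in the distal small intestine (-1.69 ± 0.57, adjusted p = 0.0165), a call lost without distal small intestine GFP-negative replicate 1 (-1.34, adjusted p = 0.0805).

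The fall within the colon was larger. Slc10a2 averaged 0.269 ± 0.300 CPM in GFP-high cells of the distal colon and 19.4 ± 12.1 CPM in those of the proximal colon, a difference of -6.19 ± 0.74 (adjusted p = 9.03e-09). In GFP-negative cells the means were 0.335 ± 0.369 CPM in the distal and 46.8 ± 13.9 CPM in the proximal colon, a difference of -7.12 ± 0.75 (adjusted p = 2.95e-10). The libraries did not overlap in either fraction. The size of these differences moved with the highest distal colon library of each fraction: they were -7.18 without distal colon GFP-high replicate 2 and -8.06 without distal colon GFP-negative replicate 4.

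Fabp6, the bile acid carrier of the enterocyte, had its 3 highest group means in the distal small intestine. It had 112, 30.1, 59.5 and 84.9 CPM in the GFP-high libraries there, 935, 223, 186 and 139 CPM in the GFP-intermediate ones, and 4689, 1476, 1020 and 680 CPM in the GFP-negative ones. The GFP-high libraries lay below all others, and the GFP-negative and GFP-intermediate ones overlapped through GFP-intermediate replicate 1. The gene was 27.4-fold lower in the GFP-high fraction than in the GFP-negative one (-4.78 ± 0.76, adjusted p = 4.37e-07), and the difference was -3.88 without GFP-negative replicate 1. In the middle small intestine Fabp6 had 1.15, 0.438, 0.179 and 0.416 CPM in the GFP-high libraries and 11.1, 9.12, 3.20 and 2.19 CPM in the GFP-negative ones. The fractions did not overlap there (-3.59 ± 0.79, adjusted p = 0.000137, and -4.23 without GFP-high replicate 1).

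Set against the proximal small intestine, Fabp6 in the distal part was 169-fold higher in GFP-high cells (7.40 ± 0.90, adjusted p = 1.74e-08) and 2509.9-fold higher in GFP-negative cells (11.29 ± 1.02, adjusted p = 1.20e-12). The larger value rested in part on single libraries, being 10.40 without distal GFP-negative replicate 1 and 13.12 without proximal GFP-negative replicate 2, which held 2.69 CPM where the other 3 held 0.0880 to 0.360 CPM. The middle part exceeded the proximal part in GFP-negative cells (3.04 ± 0.77, adjusted p = 0.0175). That call was lost on leaving out any 1 of middle replicates 1 and 2 and proximal replicates 1, 3 and 4 (adjusted p = 0.0570 to 0.0890) and with only the groups compared (adjusted p = 0.391), and the difference was 4.86 without proximal replicate 2. Without all libraries of replicate number 1 it was 2.37 (adjusted p = 0.232). In the colon the gene was low: it averaged 0.705 CPM in GFP-high and 3.30 ± 2.97 CPM in GFP-negative cells of the proximal part, where 1 GFP-negative library had no count. The fractions differed there by -2.23 ± 0.74 (adjusted p = 0.0219), a call lost without any 1 of GFP-high replicates 1, 2 and 4 and GFP-negative replicates 2 and 3 (adjusted p = 0.0505 to 0.135), at -1.60 without GFP-negative replicate 2, and lost when only the groups compared were fitted (adjusted p = 0.212). Without all libraries of replicate number 2 the difference was -1.34 (adjusted p = 0.283). Proximal colon cells were 102-fold lower than distal small intestine cells in the GFP-high fraction (-6.67 ± 0.85, adjusted p = 1.16e-08), and lower, at a difference of -9.22 ± 0.93 in the GFP-negative fraction (adjusted p = 6.91e-12). The GFP-negative value was -8.33 without distal small intestine GFP-negative replicate 1 and -9.85 without proximal colon GFP-negative replicate 2.

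Slc51a and Slc51b, the export subunits, were found along the whole small intestine and the proximal colon, and their fraction difference was smaller in the proximal colon than in the distal small intestine. In the proximal small intestine Slc51a had 9.94, 11.8, 12.4 and 11.4 CPM in the GFP-high libraries, against 213, 261, 135 and 126 CPM in the GFP-negative ones. Slc51b had 1.59, 1.97, 3.51 and 2.77 CPM in the GFP-high libraries, against 26.9, 54.2, 22.1 and 25.9 CPM in the GFP-negative ones. Both genes were separated between the fractions without overlap, and both were also separated in the middle and distal parts. Slc51a was lower in GFP-high cells, at a difference of -4.01 ± 0.53, -3.66 ± 0.52 and -4.09 ± 0.53 from the proximal to the distal part (adjusted p = 8.65e-09, 4.53e-08 and 4.27e-09). For Slc51b the differences were -3.71 ± 0.48, -3.60 ± 0.48 and -3.86 ± 0.48 (adjusted p = 6.43e-09, 9.60e-09 and 1.80e-09). These 6 calls held under every alternative tried.

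In the distal small intestine Slc51a had 42.6, 18.0, 30.6 and 35.9 CPM in the GFP-high libraries and 933, 467, 438 and 325 CPM in the GFP-negative ones. Slc51b had 9.58, 3.30, 4.99 and 7.26 CPM in the GFP-high libraries and 156, 89.1, 47.1 and 71.4 CPM in the GFP-negative ones. These levels exceeded those of the proximal part by 1.48 ± 0.48 for Slc51a (adjusted p = 0.0346) and 1.35 ± 0.45 for Slc51b (adjusted p = 0.0386) in GFP-high cells. In GFP-negative cells the differences were 1.56 ± 0.48 (adjusted p = 0.0179) and 1.5 ± 0.44 (adjusted p = 0.0128). These regional calls were close to the threshold. In GFP-high cells Slc51a lost it without any 1 of distal replicates 1, 3 and 4 or any 1 proximal library (1.31 to 1.52, adjusted p = 0.0525 to 0.119), and Slc51b without distal replicates 1 or 4 or proximal replicates 1, 2 or 4 (1.07 to 1.41, adjusted p = 0.0655 to 0.181). In GFP-negative cells Slc51a lost it without distal replicate 1 (1.16, adjusted p = 0.113) or proximal replicates 3 or 4 (adjusted p = 0.0596 and 0.0623), and Slc51b without distal replicate 1 (1.10, adjusted p = 0.0968) or proximal replicate 3 (adjusted p = 0.0510).

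In the proximal colon Slc51a had 5.63, 25.4, 10.7 and 16.7 CPM in the GFP-high libraries, against 46.9, 45.3, 50.4 and 15.8 CPM in the GFP-negative ones. The lowest GFP-negative library, replicate 4, lay within the GFP-high range. Slc51a was lower in GFP-high cells, at a difference of -1.44 ± 0.48 (adjusted p = 0.0212) and Slc51b by -1.43 ± 0.45 (adjusted p = 0.0132). The call of Slc51a was lost without GFP-high replicate 1 or 3 or GFP-negative replicate 3 (adjusted p = 0.0720 to 0.0994), and that of Slc51b without GFP-high replicate 1 or GFP-negative replicate 1 or 3 (adjusted p = 0.0504 to 0.0609). With all libraries of a replicate number left out as well, the adjusted p reached 0.255 for Slc51a and 0.13 for Slc51b. Their smallest differences were then -1.01 and -0.99. The fraction difference was smaller here than in the distal small intestine, by 2.65 ± 0.67 for Slc51a (adjusted p = 0.00299) and 2.42 ± 0.62 for Slc51b (adjusted p = 0.00336), in a test of the difference itself. For Slc51a that call was lost when all libraries of replicate number 2 were left out (2.18, adjusted p = 0.0552). Between these parts, 8.75% of all genes were called in that direction, and the median of all genes tested was -0.105. The median sum of the colonocyte markers was 2423 CPM in GFP-high and 7098 CPM in GFP-negative cells of the proximal colon. That of the enterocyte markers was 1932 and 19865 CPM in the distal small intestine. The 2 lists differ, and the part of these markers in the result was not tested. In GFP-negative cells proximal colon levels were below those of the distal small intestine, at a difference of -3.77 ± 0.52 for Slc51a and -3.69 ± 0.48 for Slc51b (adjusted p = 4.08e-08 and 8.65e-09), while the median of all genes was 0.114. In GFP-high cells Slc51b was lower, at a difference of -1.26 ± 0.44 (adjusted p = 0.0306), and this call was lost without proximal colon replicates 1 or 2 or distal small intestine replicates 1 or 4 (adjusted p = 0.0621 to 0.135). Slc51a was at -1.12 ± 0.48 (adjusted p = 0.0802), which passed in a model that took the number as a block (-1.11, adjusted p = 0.0482), with the other form of the quasi-likelihood test (adjusted p = 0.0471) and without proximal colon GFP-high replicate 2 (-1.53, adjusted p = 0.0294).

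**Figure D2:**
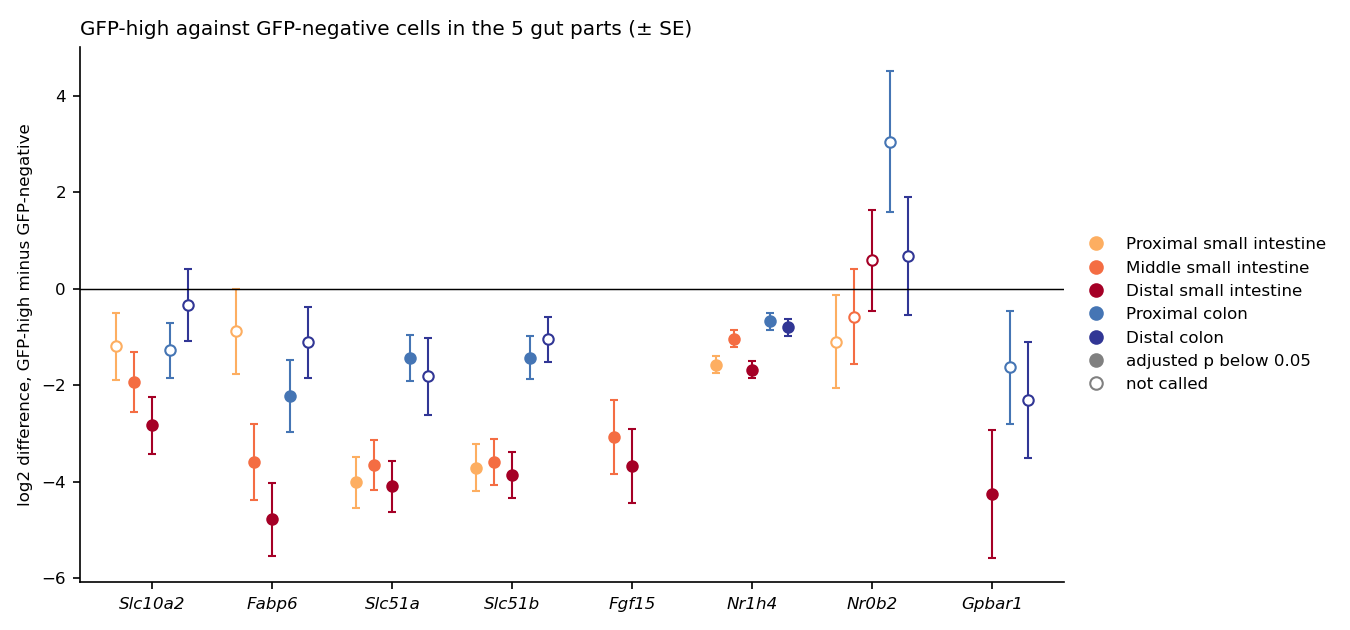
Difference between GFP-high and GFP-negative cells (log2, ± SE) for each gene in the 5 gut parts; filled points have an adjusted p below 0.05, and genes with a fraction at 0 in every library are left out. Slc51a and Slc51b lie between -4.09 and -3.60 in the 3 small intestine parts and between -1.81 and -1.05 in the colon.

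The subunits parted in the distal colon. Slc51a had 0, 0.365, 0.0656 and 0.0242 CPM in its GFP-high libraries and 0.284, 0.525, 0.632 and 0.102 CPM in its GFP-negative ones, all below every library of the proximal colon. Slc51b kept 1.48, 0.964, 0.415 and 0.435 CPM in GFP-high and 2.49, 1.84, 1.59 and 0.891 CPM in GFP-negative libraries. Against the proximal colon Slc51a was lower, at a difference of -7.05 ± 0.70 in GFP-high cells (adjusted p = 6.36e-11) and by -6.67 ± 0.63 in GFP-negative cells (adjusted p = 1.13e-11). Slc51b was lower, at a difference of -1.67 ± 0.47 in GFP-high cells (adjusted p = 0.0148) and by -2.06 ± 0.46 in GFP-negative cells (adjusted p = 0.000913). The GFP-high value of Slc51a was -8.82 without distal colon replicate 2, and the GFP-high call of Slc51b was lost without distal colon replicate 3 or 4 (-1.44 and -1.46, adjusted p = 0.0793 and 0.0763). Within the distal colon neither was called between the fractions (Slc51a -1.81 ± 0.79, adjusted p = 0.0863; Slc51b -1.05 ± 0.47, adjusted p = 0.0938). Slc51a was called by DESeq2 (adjusted p = 0.0135) and when GFP-high replicate 2 (-3.58, adjusted p = 0.00940) or replicate 4 of the GFP-negative cells (-2.13, adjusted p = 0.0405) was left out. Slc51b was called when GFP-high replicate 1 (-1.497, adjusted p = 0.0309) or replicate 4 of the GFP-negative cells (-1.26, adjusted p = 0.0486) was left out.

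Per length, on the authors' deposited log2 RPKM scale (reads scaled to gene length and library total), the subunits were near each other in 12 of the 15 groups, with a mean of Slc51b minus Slc51a between -0.66 and -0.01. In the distal colon the mean was 5.38 in GFP-high, 4.24 in GFP-intermediate and 4.41 in GFP-negative cells. The distal colon exceeded the proximal colon by 5.52, 4.45 and 4.71 in the 3 fractions, with every distal library above every proximal one. This comparison was chosen after the values had been seen, so it is given as a description with no test. The deposited log2 values of a gene at 0 depend on the small count the authors added, so the size of the gap has no exact meaning in the GFP-high fraction.

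**Figure D3:**
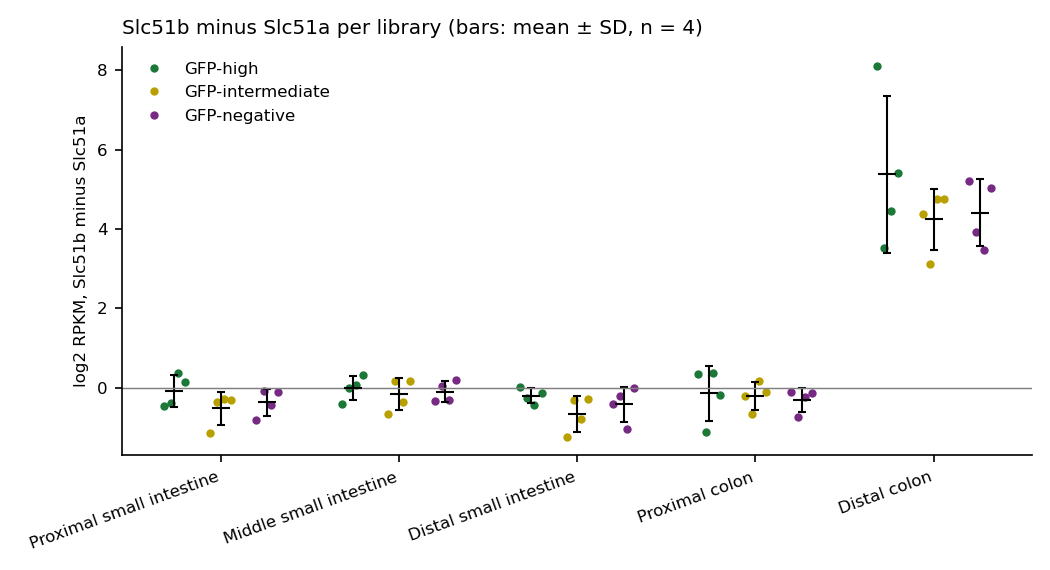
Slc51b minus Slc51a on the deposited log2 RPKM scale in each library (points) with the group mean ± SD (n = 4), by gut part and GFP fraction. The groups outside the distal colon average between -0.66 and -0.01, and the distal colon groups average between 4.24 and 5.38.

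Fgf15, the hormone of this axis, had its highest mean in the distal small intestine in each of the 3 fractions. In the distal small intestine it had 4.40, 0.816, 1.59 and 1.42 CPM in the GFP-high libraries, against 51.4, 12.8, 17.6 and 22.9 CPM in the GFP-negative ones. In the middle part it had 0.426, 0.313, 0.201 and 0.426 CPM in the GFP-high libraries, against 3.69, 2.43, 3.13 and 2.32 CPM in the GFP-negative ones. The fractions did not overlap in either part. The difference was -3.67 ± 0.76 in the distal part (adjusted p = 0.000128) and -3.08 ± 0.76 in the middle one (adjusted p = 0.00105), and the distal one was -4.36 without GFP-high replicate 1. The proximal small intestine had no count in its 4 GFP-high or its 4 GFP-negative libraries, and its GFP-intermediate libraries held 4 counts in all, in replicate 2 (0.0710 CPM). Between the distal and the proximal part the GFP-intermediate cells differed by 7.19, by 10.64 without that library and by 6.03 without distal GFP-intermediate replicate 1 (adjusted p = 1.38e-05 and 4.30e-05 without them). Set against the floor of 3 counts per library, the distal part was at least 46.03-fold higher in GFP-high and at least 557-fold higher in GFP-negative cells, and the middle part at least 7.64-fold and at least 61.5-fold higher. Without distal GFP-high replicate 1 the GFP-high bound of the distal part was 28.5-fold. The GFP-negative bound was 378-fold without distal GFP-negative replicate 1. The middle GFP-high call was lost with the other form of the quasi-likelihood test (adjusted p = 0.185). In the colon only 3 of the 24 libraries held any count, 14 counts in all, none of them GFP-high. Proximal colon cells were at least 66.7-fold lower than distal small intestine cells in the GFP-high and at least 677-fold lower in the GFP-negative fraction, and at least 41.3-fold lower in the GFP-high fraction without distal GFP-high replicate 1. In the GFP-negative fraction they were at least 459-fold lower without distal GFP-negative replicate 1.

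Nr1h4, the receptor FXR, was present in every library. From the proximal small intestine to the distal colon it averaged 17.7 ± 3.06, 27.6 ± 4.00, 40.4 ± 7.93, 51.9 ± 8.13 and 18.2 ± 4.96 CPM in GFP-high cells. In GFP-negative cells the means were 52.6 ± 8.00, 56.5 ± 9.47, 129 ± 21.5, 83.2 ± 7.6 and 31.6 ± 3.84 CPM (SD, n = 4 each). The libraries of the fractions did not overlap in any part. Nr1h4 was the only gene of the 8 called in all 5 parts, at -1.57 ± 0.18, -1.04 ± 0.18, -1.68 ± 0.18, -0.68 ± 0.18 and -0.80 ± 0.18 (adjusted p = 2.06e-10, 2.18e-06, 2.68e-11, 0.00272 and 0.000518). The difference was smaller in the proximal colon than in the distal small intestine by 1.00 ± 0.25 (adjusted p = 0.00235). In the proximal colon the call was lost when all libraries of replicate number 3 were left out (-0.63, adjusted p = 0.0594).

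Along the gut Nr1h4 was higher in the distal than in the proximal small intestine in GFP-high cells (1.19 ± 0.18, adjusted p = 1.85e-06) and in GFP-negative cells (1.30 ± 0.18, adjusted p = 1.41e-07). It was lower in the distal than in the proximal colon in both fractions (GFP-high -1.51 ± 0.18, adjusted p = 7.08e-09; GFP-negative -1.39 ± 0.18, adjusted p = 3.29e-08). In the step from distal small intestine to proximal colon the GFP-high fraction was not called (0.36 ± 0.17, adjusted p = 0.131), but it passed without distal small intestine GFP-high replicate 1 (0.499, adjusted p = 0.0481) and without all libraries of replicate number 1 (0.58, adjusted p = 0.0104), and the GFP-negative fraction was lower (-0.64 ± 0.18, adjusted p = 0.00315). In the middle part GFP-high cells exceeded those of the proximal part by 0.64 ± 0.18 (adjusted p = 0.0391), a call lost without any 1 of middle replicates 1, 3 and 4 or proximal replicates 1, 2 and 4 (adjusted p = 0.0578 to 0.189). Per length, Nr1h4 was the highest of the 8 genes in all 6 colon groups, with a mean deposited log2 RPKM of 4.50 in the GFP-high and 5.18 in the GFP-negative cells of the proximal part. It was also the highest in GFP-high (2.90 and 3.57) and GFP-intermediate cells (3.40 and 3.70) of the proximal and middle small intestine. Fabp6 was the highest in the distal small intestine, at 7.06 in the GFP-high and 11.64 in the GFP-negative cells.

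Nr0b2, which encodes SHP, ran the other way along the small intestine. In the proximal part it had 2.10, 1.5, 1.59 and 1.5 CPM in the GFP-high libraries, against 4.65, 6.46, 0.953 and 2.29 CPM in the GFP-negative ones. The fractions overlapped and were not called (-1.10 ± 0.97, adjusted p = 0.375), although the other form of the quasi-likelihood test called them (adjusted p = 0.0125). In the distal part it had 0.513, 0.0251, 0.0662 and 0.0545 CPM in the GFP-high libraries and 0.0740, 0.114, 0.242 and 0 CPM in the GFP-negative ones, all below 1 CPM. The distal part was below the proximal part, at a difference of -5.02 ± 1.15 in GFP-negative cells (adjusted p = 0.00115; -5.80 without distal replicate 3). In GFP-high cells the difference was -3.34 ± 1.07 (adjusted p = 0.0316). It was -5.06 without distal GFP-high replicate 1, and the call was lost without distal replicates 2, 3 or 4 or proximal replicate 1 (adjusted p = 0.0617 to 0.102). Colon means were at most 0.117 CPM. The proximal colon was called lower than the distal small intestine in GFP-negative cells (-3.78 ± 1.44, adjusted p = 0.0347) on 2 counts against 35, a call lost without proximal colon replicates 2, 3 or 4 or distal small intestine replicate 3 (adjusted p = 0.0809 to 0.133), with the other form of the quasi-likelihood test (adjusted p = 0.134) and with only the groups compared (adjusted p = 0.229), and at -6.15 without proximal colon replicate 1.

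Gpbar1, the cell surface receptor, stayed below 1 CPM in every library. In the distal small intestine it had 0, 0.0754, 0.0221 and 0 CPM in the GFP-high libraries, against 0.715, 0.285, 0.138 and 0.845 CPM in the GFP-negative ones, 8 counts against 148. It was lower in GFP-high cells there (-4.25 ± 1.33, adjusted p = 0.00635), at -5.73 without GFP-high replicate 2, and the call was lost when all libraries of replicate number 4 were left out (adjusted p = 0.0639). In the middle part the GFP-high libraries had no count, at least 2.95-fold below the GFP-negative mean of 0.112 CPM (adjusted p = 0.00162). The call in the proximal part rested on 8 counts in GFP-negative replicate 1, and without that library no count was left in either fraction (adjusted p = 1). It was also lost without any 1 of the 4 GFP-high libraries (adjusted p = 0.0604 to 0.0639), with no filter on low counts, with the other form of the quasi-likelihood test and with only the groups compared (adjusted p = 0.05, 0.246 and 0.180). In the colon GFP-high cells averaged 0.0867 CPM in the proximal and 0.0752 CPM in the distal part, and GFP-negative cells 0.271 ± 0.0615 and 0.377 ± 0.284 CPM (SD, n = 4). Those differences were not called (-1.63 ± 1.18, adjusted p = 0.340, and -2.30 ± 1.20, adjusted p = 0.162), but the other form of the quasi-likelihood test called both (adjusted p = 0.0473 and 0.00504). The enteroendocrine markers (10 genes) and the leukocyte markers were called lower in GFP-high cells of the distal small intestine for 10 of 10 in each list, where 26.2% of all genes were. The sums were 68.7 to 209 CPM for the first and 11.3 to 34.0 CPM for the second in GFP-high libraries, against 495 to 1037 and 378 to 1696 CPM in GFP-negative ones. In GFP-negative cells Gpbar1 averaged 0.496 CPM in the distal small intestine. From there to the proximal and distal colon the median enteroendocrine sums of GFP-negative cells were 828, 5240 and 726 CPM. The median leukocyte sums of these markers were 1001, 475 and 164 CPM. Their part in the values of Gpbar1 was not tested.

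The GFP-intermediate cells were set against both other fractions. Against GFP-negative cells, 3, 7 and 7 of the 8 genes were called lower in GFP-intermediate cells from the proximal to the distal small intestine, where 21.9%, 21.2% and 21.7% of all genes were. None of the 8 was called in either colon part, where 15% and 9.8% of all genes were called. By unadjusted p under 0.05 the counts were 3 in the proximal and 0 in the distal part. The shares are at an adjusted p and cannot be set against them, so these counts are no result about the genes. DESeq2 called none of the 8 in either. In the distal small intestine the differences ran from -3.93 ± 1.30 for Gpbar1 to -1.18 ± 0.18 for Nr1h4. The value of Gpbar1 was -4.58 without GFP-intermediate replicate 2, and its call was lost when all libraries of replicate number 1 (-3.30, adjusted p = 0.0625) or number 4 (-3.42, adjusted p = 0.0788) were left out. There Fabp6 was lower, at a difference of -2.41 ± 0.68 (adjusted p = 0.00294), which became -3.46 without GFP-intermediate replicate 1 and -1.51 (adjusted p = 0.0637) without GFP-negative replicate 1. Without that same GFP-intermediate library the differences of Slc10a2, Slc51a, Slc51b and Fgf15 were larger too, at -3.36, -3.45, -3.51 and -4.60, against -2.69, -2.41, -2.90 and -3.41 with it. In the middle part the call of Fabp6 (-1.86 ± 0.70, adjusted p = 0.0287) was lost without GFP-intermediate replicates 3 or 4 or GFP-negative replicates 1 or 2 (adjusted p = 0.0719 to 0.117), and that of Gpbar1 without GFP-intermediate replicates 1, 3 or 4 (adjusted p = 0.0592 to 0.0627).

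Between GFP-high and GFP-intermediate cells, 3 of the 8 genes were called, all lower in GFP-high cells of the distal small intestine, where 8.26% of all genes were called lower. Fabp6 differed by -2.37 ± 0.68 (adjusted p = 0.0149), Slc51a by -1.68 ± 0.48 (adjusted p = 0.0145) and Nr1h4 by -0.50 ± 0.18 (adjusted p = 0.0498). All 3 rested on GFP-intermediate replicate 1: without it they were -1.36, -0.67 and -0.26 (adjusted p = 0.224, 0.419 and 0.429). They were also lost without GFP-high replicate 2 (adjusted p = 0.0599, 0.0602 and 0.164), and Nr1h4 also with DESeq2 size factors, no filter or only the groups compared (adjusted p = 0.0754, 0.0759 and 0.133) and without GFP-high replicates 3 or 4 or GFP-intermediate replicate 3 (adjusted p = 0.0584 to 0.104). In the other 4 parts the edgeR test called none of the 8 genes, where 0.449%, 3.58%, 0.0428% and 1.81% of all genes were called from the proximal small intestine to the distal colon. By unadjusted p under 0.05 the counts of the 8 were 3, 3, 2 and 4. These shares are at an adjusted p and cannot be set against them, so the unadjusted counts are no result about the genes. The numbers of all genes behind these shares, 105, 836, 10 and 422, were 2238, 3285, 0 and 3084 with only the groups compared. DESeq2 called 2 of the 8 in the distal colon, where it called 1845 genes in all, and none in the other 3. In the distal colon Nr1h4 was at -0.56 ± 0.18 (adjusted p = 0.0703), which passed in the model with the block (adjusted p = 0.0497).

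The distal small intestine differed from the proximal part in each of the 3 fractions. Of the 8 genes, 6 were called higher and 1 lower in the distal part in GFP-high cells, where 6.39% and 5.42% of all genes were. The counts were 6 and 1 in GFP-intermediate cells (5.25% and 3.56% of all genes) and 7 and 1 in GFP-negative cells (6.67% and 8.9% of all genes). Slc10a2 was 59.1-fold higher in GFP-high cells (5.88 ± 0.73, adjusted p = 2.34e-08) and 183-fold higher in GFP-negative cells (7.52 ± 0.75, adjusted p = 3.38e-11). The GFP-high difference was 5.21 without all libraries of replicate number 1. The seventh gene of the GFP-negative cells was Gpbar1 (3.96 ± 1.32, adjusted p = 0.0323), a call lost without distal replicates 1 or 4 or proximal replicates 2, 3 or 4 (adjusted p = 0.0578 to 0.0913), without all libraries of number 2, 3 or 4 (adjusted p = 0.0742 to 0.203) and with only the groups compared (adjusted p = 0.195), and at 8.32 without proximal replicate 1. The lower gene in each fraction was Nr0b2, which in GFP-intermediate cells differed by -4.14 (adjusted p = 0.00925) and by -6.24 without distal replicate 1, a call lost without all libraries of number 2, 3 or 4 (adjusted p = 0.0671 to 0.0772). In GFP-intermediate cells Slc51a and Slc51b lost their calls without distal replicate 1 (0.75 and 0.76, adjusted p = 0.481 and 0.472). Slc51a lost it also with only the groups compared (1.73, adjusted p = 0.0550) and without all libraries of number 1 (0.63, adjusted p = 0.667) or number 3 (1.90, adjusted p = 0.0701). Slc51b lost it also without distal replicate 2 or any 1 proximal library (adjusted p = 0.0644 to 0.197), with DESeq2 size factors, in the model with the block and with only the groups compared (adjusted p = 0.0546, 0.0799 and 0.0811). Without all libraries of number 1 the difference of Slc51b was 0.498 (adjusted p = 0.799).

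For Slc10a2 and Fabp6 most of this regional difference lay between the middle and the distal part. Against the middle part, the distal part was higher for Slc10a2 and Fabp6 in GFP-high cells, where 1.22% of all genes were called higher, and for these genes, Fgf15 and Nr1h4 in GFP-negative cells, where 2.74% were. Slc10a2 differed by 4.90 ± 0.68 in GFP-high cells (adjusted p = 2.01e-06) and by 5.80 ± 0.69 in GFP-negative cells (adjusted p = 1.95e-08). Fabp6 differed by 7.07 ± 0.88 in GFP-high cells (adjusted p = 2.10e-07; 7.71 without middle GFP-high replicate 1) and by 8.26 ± 0.89 in GFP-negative cells (adjusted p = 1.29e-09; 7.36 without distal GFP-negative replicate 1). Slc51a and Slc51b were not called in GFP-negative cells (1.24 ± 0.47, adjusted p = 0.111, and 0.0487 with the other form of the quasi-likelihood test; Slc51b 0.96 ± 0.43, adjusted p = 0.206). Between the middle and the proximal part 2 genes were called higher in each fraction, where 1.24% of all genes were in the GFP-high and 1.17% in the GFP-negative cells: Fgf15 in both, Nr1h4 in GFP-high and Fabp6 in GFP-negative cells. Nr0b2 was called in GFP-negative cells there, as lower, by the other form of the quasi-likelihood test (-2.61, adjusted p = 1.66e-05).

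Against the distal small intestine, the proximal colon was lower for 3 of the 8 genes in GFP-high cells (Fabp6, Slc51b and Fgf15) and for 7 of 8 in GFP-negative cells (all but Gpbar1), where 11.7% and 14.7% of all genes were called lower. Against the proximal colon, the distal colon was lower for Slc10a2, Slc51a, Slc51b and Nr1h4 in each of the 2 fractions, where 4.05% of all genes were called lower in the GFP-high and 7.17% in the GFP-negative cells. The fraction difference itself differed between the distal and the proximal small intestine for 1 gene, Fabp6 (-3.90 ± 1.12, adjusted p = 0.0372), where 0.993% of all genes were called in that direction. That call was lost without distal GFP-high replicates 2 or 3, distal GFP-negative replicate 1, proximal GFP-high replicates 2 or 4, or proximal GFP-negative replicates 1, 3 or 4 (adjusted p = 0.0592 to 0.127), with the other form of the quasi-likelihood test (adjusted p = 0.107) and with only the groups compared (adjusted p = 0.134), and the difference was -5.72 without proximal GFP-negative replicate 2. Without all libraries of replicate number 1 it was -3.29 (adjusted p = 0.201). Between the proximal colon and the distal small intestine the fraction difference was called for 3 genes, described above. Fabp6 missed the threshold there (2.55 ± 0.99, adjusted p = 0.0601), and passed in the model with the block (2.51, adjusted p = 0.0478), by DESeq2 (2.64, adjusted p = 0.0420) and without any 1 of 5 libraries (adjusted p = 0.0235 to 0.0474). Slc10a2 passed there with the other form of the quasi-likelihood test (1.55, adjusted p = 0.0387). Between the colon parts the edgeR test called none of the 8, where 0.616% of all genes were called, and the count at an unadjusted p under 0.05 and the count by DESeq2 were 0 as well.

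In the distal small intestine the libraries of replicate number 1 stood apart for these genes. Number 1 was the highest of the 4 for all 6 genes that averaged 1 CPM or more, in each of the 3 fractions. For Fgf15 it held 4.40, 6.62 and 51.4 CPM in GFP-high, GFP-intermediate and GFP-negative cells, where the other libraries reached at most 1.59, 1.11 and 22.9 CPM. The summed enterocyte markers of numbers 1 to 4 were 1886, 1061, 1978 and 1996 CPM in GFP-high, 4070, 2238, 1743 and 1519 CPM in GFP-intermediate, and 23290, 19190, 17630 and 20540 CPM in GFP-negative libraries. Number 1 was thus highest in 2 of the 3 fractions for those markers and below numbers 3 and 4 in the GFP-high fraction. Number 1 was also the highest for the summed colonocyte markers in all 3 fractions, at 266.5, 618 and 1727 CPM in GFP-high, GFP-intermediate and GFP-negative libraries, where the others reached at most 264, 381 and 1706 CPM. The summed leukocyte markers were highest in number 1 in GFP-high (34.0 CPM, others at most 16.3 CPM) and GFP-intermediate libraries (33.9 CPM, others at most 18.6 CPM), and in number 4 in GFP-negative ones. The enteroendocrine markers were highest in number 4 in all 3 fractions. The summed epithelial markers (7 genes) were highest in number 1 in GFP-intermediate (13550 CPM, others at most 9482 CPM) and GFP-negative libraries (20930 CPM, others at most 16310 CPM), and in number 3 in GFP-high ones. Fewer genes had a count in number 1 in GFP-high cells (18419, others 21360 to 22420) and in GFP-intermediate cells (19279, others 22194 to 23090). In GFP-negative cells number 1 had 20773, within the 18960 to 22963 of the others. The part of these markers and of the number of genes found in the result was not tested. Values without the number 1 libraries stand beside many of the results that they moved.

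**Figure D4:**
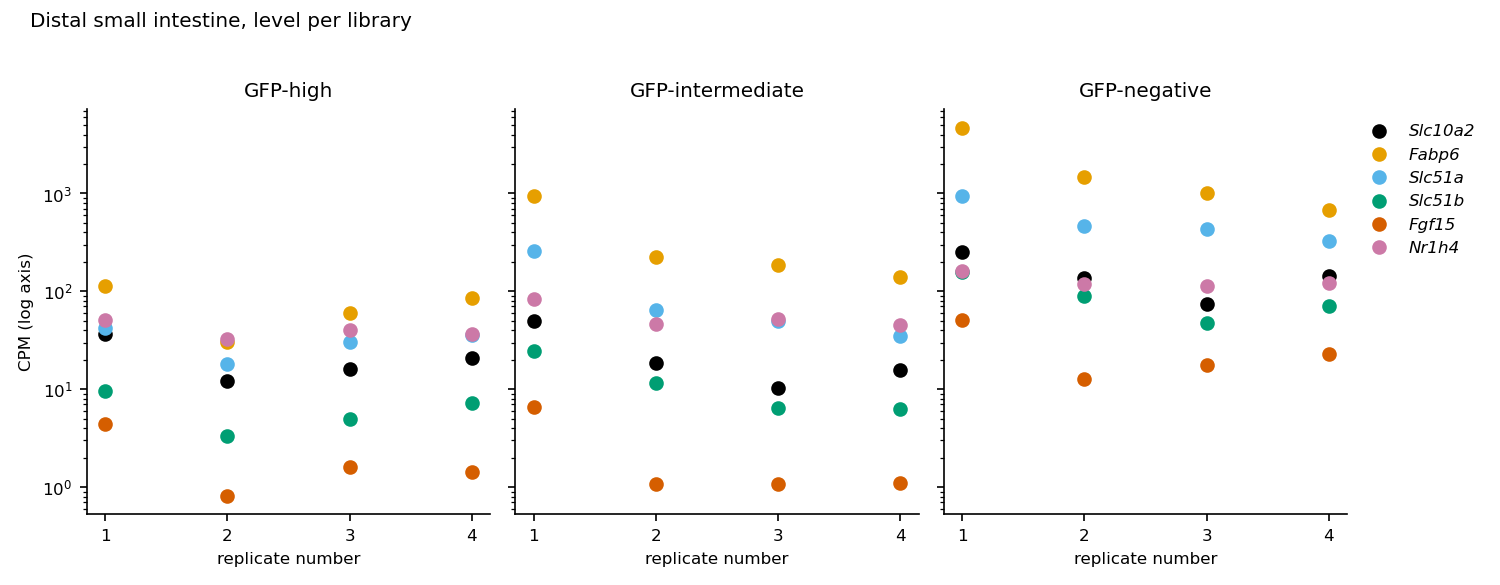
CPM (log axis) of the 6 genes averaging 1 CPM or more in the 4 libraries of each fraction of the distal small intestine, by replicate number, with GFP-high at the left, GFP-intermediate in the middle and GFP-negative at the right. Number 1 is the highest library for every one of the 6 genes in all 3 panels.

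Other genes of bile acid transport and metabolism were drawn from 4 lists. Of the other bile acid transporters, 6 of 8 were tested, and in the distal small intestine 4 were lower and 1 was higher in GFP-high cells (median -1.34). From the proximal small intestine to the distal colon 4, 4, 4, 4 and 2 of the list were lower and 1, 1, 1, 0 and 2 higher in GFP-high cells. Over all genes tested, 24.6%, 25.6%, 26.2%, 14.0% and 13.9% were lower and 22.5%, 22.7%, 25.7%, 11.3% and 11.2% higher in these comparisons. The counts of the 3 lists that follow, between GFP-high and GFP-negative cells, stand against the same shares. A count near its share is no result about a list. The lower ones were Abcg2 (-1.94 ± 0.17, adjusted p = 1.75e-13), Abcc2 (-1.60 ± 0.31, adjusted p = 1.89e-05) and Abcc3 (-1.21 ± 0.19, adjusted p = 2.33e-07), which are export pumps, and the uptake carrier Slco2b1 (-1.47 ± 0.18, adjusted p = 1.06e-09). Abcc4, another export pump, was higher, at 18.5 ± 2.04 CPM in GFP-high and 5.61 ± 2.67 CPM in GFP-negative cells (SD, n = 4 each; 1.72 ± 0.22, adjusted p = 2.84e-09). In GFP-negative cells the distal part was below the proximal part for Abcc2 (-1.60 ± 0.31, adjusted p = 0.000114) and Slco2b1 (-0.73 ± 0.18, adjusted p = 0.00222), and above it for Abcc4 (0.98 ± 0.22, adjusted p = 0.000816, but 0.219 with only the groups compared).

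Of the enzymes that make or modify bile acids, 8 of 10 were tested, and 6 were lower and 1 higher in GFP-high cells of the distal small intestine (median -2.77). The list had 6, 6, 6, 1 and 1 lower and 0, 0, 1, 0 and 1 higher along the 5 parts. Cyp3a13, a cytochrome of the family that hydroxylates bile acids, averaged 28.1 ± 6.07 CPM in GFP-high and 296 ± 30.2 CPM in GFP-negative cells (-3.40 ± 0.43, adjusted p = 2.86e-09). Cyp3a25 (-3.45 ± 0.51, adjusted p = 1.17e-07), Cyp3a11 (-3.35 ± 0.57, adjusted p = 2.09e-06) and the glucuronosyltransferase Ugt1a1 (-2.20 ± 0.33, adjusted p = 1.30e-07) were lower as well. The 1 higher gene, Cyp7b1, an oxysterol hydroxylase, averaged 0.0728 CPM in GFP-high cells and had no count in GFP-negative ones. Along the small intestine, in GFP-negative cells, 4 of 8 were lower and none was higher in the distal than in the proximal part (median -1.72). Of all genes tested, 8.9% were called lower and 6.67% higher in that comparison. Cyp3a11 averaged 53.1 ± 37.1 CPM in the distal and 433 ± 260 CPM in the proximal part (-3.03 ± 0.55, adjusted p = 5.25e-05).

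Among the nuclear receptors and their partners, 10 of 11 were tested, and 5 were lower and 1 higher in GFP-high cells of the distal small intestine (median -0.66). Along the 5 parts 4, 4, 5, 3 and 1 were lower and 2, 1, 1, 2 and 1 higher. Rxra, the partner of FXR, averaged 82.5 ± 9.93 CPM in GFP-high and 195 ± 44.8 CPM in GFP-negative cells (-1.25 ± 0.16, adjusted p = 5.53e-09). The intestinal factor Hnf4g (-1.71 ± 0.21, adjusted p = 9.45e-10), the xenobiotic receptor Nr1i2 (-1.11 ± 0.12, adjusted p = 1.26e-10) and Nr1i3 (-3.79 ± 0.68, adjusted p = 4.80e-06), which encodes a further xenobiotic receptor, were lower too, and the vitamin D receptor Vdr, which also binds lithocholic acid, was higher (0.67 ± 0.14, adjusted p = 7.37e-05). Hnf4a was not called (-0.21 ± 0.11, adjusted p = 0.114), and it was with DESeq2 size factors (-0.33, adjusted p = 0.00703). Of the 6 genes of the FGF15 pathway and of regional control, 2 were higher and 2 lower (median 0.498), and along the 5 parts 1, 1, 2, 2 and 1 were lower and 1, 2, 2, 1 and 2 higher. Fgfr4, the receptor through which FGF15 acts in the liver, averaged 34.1 ± 6.98 CPM in GFP-high and 6.87 ± 2.51 CPM in GFP-negative cells (2.31 ± 0.28, adjusted p = 6.58e-10). Its co-receptor Klb was not called (1.16 ± 0.62, adjusted p = 0.113), and it was without GFP-negative replicate 4 (1.77, adjusted p = 0.0275) and with the other form of the quasi-likelihood test (adjusted p = 0.0487). Gata4, which represses ileal genes in the proximal small intestine, averaged 71.9 ± 20.7 CPM in distal and 249 ± 79.3 CPM in proximal GFP-negative cells (-1.79 ± 0.41, adjusted p = 0.00107). In the same comparison Gata6 was lower (-0.97 ± 0.13, adjusted p = 4.53e-08), and Malrd1, a gene linked to FGF15 output in mice, was higher (0.80 ± 0.23, adjusted p = 0.01003), a call lost when all libraries of replicate number 4 were left out (0.82, adjusted p = 0.0549).

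The genes with the most similar profile were found by Pearson's r over the 15 group means of log2(CPM + 1), among 11180 genes with a group mean of 10 CPM or more. Groups share their gut parts and sort gates, so r is a description. Slc10a2 was nearest to Tmigd1 (0.95), Gsdme (0.91) and ccdc198 (0.89). Fabp6 was nearest to Suox (0.93), Card9 (0.90) and Fgf15 (0.89), and Fgf15 to Hspa12a (0.93), Fam151a (0.93) and Card9 (0.93). The export subunits had an r of 0.92 with each other, and other genes were nearer to each. Slc51a was nearest to Reg3b (0.97), Tmem252 (0.97) and Ccdc116 (0.96), and Slc51b to Trim15 (0.98), Ifit1bl1 (0.98) and Myzap (0.98). Nr1h4 was nearest to Eif4e3 (0.95), Mep1a (0.93) and Gm37844 (0.93), and Nr0b2 to Akp3 (0.99), Meis2 (0.99) and Sult6b2 (0.98). Gpbar1 was nearest to Pyy (0.90), a hormone gene of enteroendocrine L cells, and to Hivep2 (0.88). Its highest group mean was 0.496 CPM, so this likeness rests on few counts.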

How the data were processed

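RNA was measured in 60 libraries, 15 groups of 4. The authors deposited counts of reads per gene, with a log2 RPKM value beside each count. Per the submitters' processing notes STAR, featureCounts of the Subread package, edgeR and the mm10 build were used, and their versions, the annotation release and the strand setting are not given in the sources used here. Per the file headers the deposited log2 RPKM values are per gene length and library, and they were used only to compare levels between genes. Of the counts between 1 and 20, 72.2% to 84.4% per library are even, and whether both reads of a pair were counted is not stated in the sources used here. If they were, the floor of 3 counts stands for fewer fragments, a floor of 3 fragments would be higher, and the folds given as "at least" would be lower. Floors cover counting error only.

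From the counts, edgeR 4.0.16 (R 4.3.3, limma 3.58.1) was run with TMM scaling, its filter on low counts over the 15 groups (23360 genes kept), 1 model for all groups (45 residual degrees of freedom) and the quasi-likelihood test for 29 comparisons, adjusted by the Benjamini-Hochberg method in each. DESeq2 1.42.0, its size factors, no filter (35853 genes), a replicate block, the other form of the quasi-likelihood test, only the groups compared, and leaving out libraries were alternatives. Where 1 library was left out, the trend of the dispersions was kept from all libraries. The code was tested on simulated data.

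The deposited batch number equals the replicate number in 60 of 60 libraries. Deviations from the group means correlated at 0.115 on average over 420 pairs of libraries with the same number (49.3% above 0.1) and at -0.0374 over 1260 pairs with different numbers. The same-number mean was uneven. Within a part it ran from 0.168 (proximal colon) to 0.429 (proximal small intestine) for GFP-high with GFP-intermediate cells. For GFP-high with GFP-negative cells it ran from -0.126 to 0.160 in the same 2 parts. The main test did not use this pairing. The pairing comes from that batch column, and what the batch stands for is not stated. The genes and lists were chosen with earlier results of these data known. The genes named are the 8, the 3 most similar to each (1 of them is not reported here), up to 4 per bile acid list by the smallest p in the distal small intestine comparisons, and Lgr5. Hnf4a, Klb, Vdr and Cyp7b1, where outside that rule, were named after their values were seen.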

Additional observations from a re-analysis of the deposited data

Results flagged for a closer look

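In 9 of 64 groups of 4 libraries averaging 1 CPM or more, 1 library lay far from the other 3 by Dixon's ratio. The ratio flags about 1 in 20 of independent groups of normally spread values. The same libraries recur across these genes, so the 9 cannot be set against that rate. Of the 9, 5 were the highest library, replicate number 1, of the distal small intestine: Fabp6 at 935 CPM, Slc51a at 258 CPM, Fgf15 at 6.62 CPM and Nr1h4 at 84.1 CPM in GFP-intermediate cells, and Nr1h4 at 161 CPM in GFP-negative cells. The others were the highest library of Slc51a in GFP-high cells of the middle small intestine (26.7 CPM), of Slc51b in GFP-negative cells (54.2 CPM) and of Nr0b2 in GFP-high cells (2.10 CPM) of the proximal small intestine, and the lowest library of Slc51a in GFP-negative cells of the proximal colon (15.8 CPM).

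The difference between GFP-high and GFP-negative cells itself differed between gut parts for 4 genes. Between the distal and the proximal small intestine it differed by -3.90 for Fabp6. Between the proximal colon and the distal small intestine it differed by 2.65 for Slc51a, 2.42 for Slc51b and 1.00 for Nr1h4.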

How the results depend on the processing

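Of the 97 calls of the 8 genes in 29 comparisons, 65 held under every alternative run, and none changed direction. With only the groups compared, the number of genes called was 2 between GFP-high and GFP-intermediate cells of the proximal small intestine, 1 in the middle part and 1 in the distal colon (0 each in the main test), 4 for GFP-high and 1 for GFP-negative cells between the middle and proximal parts (2 each), and 0 for the fraction difference between distal and proximal small intestine (1). With the other form of the quasi-likelihood test that last count was also 0, GFP-high against GFP-negative cells of the distal colon gave 2 (1), and GFP-intermediate against GFP-negative cells gave 1 in each colon part (0). DESeq2 gave 2 for GFP-high against GFP-negative cells (1) and 2 for GFP-high against GFP-intermediate cells (0) of the distal colon. With the replicate block the GFP-high against GFP-intermediate count of the distal colon was 1, Nr1h4 (adjusted p = 0.0497), and beside the blocked values given above it changed no other call of the 8 genes.

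Leaving out libraries gave counts of 0 to 4 for GFP-high against GFP-negative cells of the proximal colon and 1 to 3 for the distal colon, 0 to 3 for GFP-high against GFP-intermediate cells of the distal small intestine and 0 to 2 of the distal colon, and 0 to 1 for GFP-intermediate against GFP-negative cells of the proximal colon. Between the distal and proximal small intestine the ranges were 4 to 6 in GFP-high, 4 to 7 in GFP-intermediate and 5 to 8 in GFP-negative cells, between the middle and proximal parts 1 to 2 in each of these fractions, and 0 to 1 for the fraction difference of the first pair. Slc10a2 in GFP-high cells of the proximal colon against the distal small intestine ran from -0.83 to 0.54, the highest without replicate number 1 (adjusted p = 0.656); it was not called. Leaving out a whole replicate number raised some adjusted p above those given for single libraries. It reached 0.158 for Slc10a2 and 0.248 for Nr0b2 (GFP-negative) and 0.257 for Slc51b (GFP-high) between proximal colon and distal small intestine. Between distal and proximal small intestine in GFP-high cells it reached 0.15 for Slc51a, 0.318 for Slc51b and 0.157 for Nr0b2. For Slc51b in GFP-high cells of the colon parts it was 0.208. The cause of these changes was not tested. DESeq2 size factors moved the differences of 105 genes by a median of -0.11, -0.0768 and -0.13 (log2) for GFP-high against GFP-negative cells along the small intestine.

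The count over all genes moved by more than 1.5 times in 15 comparisons with only the groups compared. Between GFP-high and GFP-intermediate cells it was then 2238 (105 in the main test), 3285 (836), 0 (10) and 3084 (422) in the proximal and middle small intestine and the proximal and distal colon, and DESeq2 gave 394, 2106, 72 and 1845. Between the middle and proximal small intestine it was 3246 (464) for GFP-high cells but 146 (521) for GFP-negative cells, between the distal and middle parts 424 (1527) and between the colon parts 1674 (3168) in GFP-negative cells, and for the fraction difference 205 (826) between the distal and proximal small intestine and 48 (144) between the colon parts. It was 2926 (5912 in the main test) for GFP-high against GFP-negative cells of the proximal colon, 1034 (3636) between distal and proximal small intestine in GFP-negative and 4803 (2759) in GFP-high cells, 4233 (8212) between proximal colon and distal small intestine in GFP-negative cells, and 2200 (4726) for the fraction difference of that pair. The split of calls in GFP-intermediate against GFP-negative cells of the proximal colon was 1346 higher and 2094 lower with DESeq2 size factors, and 1755 and 1756 in the main test. The likeness of Card9 to Fgf15 was 0.85 with a pseudocount of 0.1 and 0.93 with 1. Of the calls of Gpbar1 and Nr0b2, which had few counts, 1 of 6 and 1 of 4 held under every alternative.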
